A study of Rattus norvegicus with 40 samples.

Results

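Small RNA sequencing of plasma from 4 sham-operated rats was compared between the day 9 (D9) and day 2 (D2) after operation. The comparison used 8 of the 40 libraries in the series, 4 of each day, and paired them by rat number. It covered the 491 miRNAs with at least 1 read in these 8 libraries, out of 752 miRNAs listed and 581 with a read anywhere in the series. All rats were adult male Sprague-Dawley rats. The sham controls had a craniotomy without the pressure pulse, and all rats were under isoflurane when blood was drawn. The other 16 rats had lateral fluid-percussion traumatic brain injury (TBI), in which a fluid pulse onto the exposed dura injures the brain. Of these, 7 later developed epilepsy (TBIE in the labels) and 9 did not (TBIN), and each was also sampled on D2 and D9. The sham rats thus give the change between the days in animals without TBI, but not without surgery, and no unoperated or pre-operation library is used here.

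A miRNA is cut from a hairpin transcript, and one or both arms of the hairpin (5p and 3p) are kept as a short mature strand that guides silencing complexes to mRNAs through its seed, the bases near its 5′ end. Plasma carries miRNAs from blood cells, platelets, liver, gut and vessel walls, bound to proteins or inside vesicles, and brain miRNAs reach it after injury. In plasma, fewer source cells and less RNA released per cell cannot be told apart.

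The mature strands of the miRNAs that passed the test are shown first, since the seed tells which of them could share targets; 2 pairs shared a seed. Sequences and positions are from RefSeq for the rat build GRCr8, where 452 of the 491 miRNAs matched a mature sequence, and capitals mark the seed (bases 2 to 8, counted from 1 at the 5′ end). The deposited counts were made on an earlier build, and each position below is that of the mature strand in GRCr8.

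miR-148b-3p and miR-152-3p share the seed CAGUGCA with miR-148a-3p, a family known to target the DNA methyltransferase Dnmt1. Their positions were chr7:136299930-136299951 on the plus strand and chr10:82329435-82329455 on the plus strand.
miR-148b-3p: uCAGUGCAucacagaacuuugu
miR-152-3p: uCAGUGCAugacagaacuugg

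miR-23a-3p and miR-23b-3p share the seed UCACAUU and come from 2 hairpin clusters with miR-27 and miR-24. Their positions were chr19:40859778-40859798 and chr17:1819405-1819425, both on the minus strand. Their counts differed by 3.04% over all 40 libraries of the series, so reads of one may have been counted for the other and the pair is treated as uncertain.
miR-23a-3p: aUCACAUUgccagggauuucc
miR-23b-3p: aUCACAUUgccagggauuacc

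The other 7 had 7 different seeds. miR-145-5p (chr18:57370033-57370055, minus strand) is known from vascular smooth muscle. miR-133a-5p (chr18:2157923-2157944, minus strand) is an arm of a muscle hairpin. let-7d-3p (chr17:16322327-16322348, plus strand) is the 3p arm of a let-7 hairpin next to let-7a-1 and let-7f-1. miR-222-3p (chrX:6022682-6022702, plus strand) is the partner of miR-221 and a known repressor of the cell-cycle inhibitor Cdkn1b. miR-1249 lies at chr7:117955547-117955568 and miR-185-5p at chr11:96169041-96169062, on the minus and plus strand. miR-7a-5p, known from pancreatic islets and neurons, has 2 loci, one of them at chr1:142215818-142215840 on the plus strand.
miR-145-5p: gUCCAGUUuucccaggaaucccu
miR-133a-5p: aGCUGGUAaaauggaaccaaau
let-7d-3p: cUAUACGAccugcugccuuucu
miR-222-3p: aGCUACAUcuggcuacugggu
miR-1249: aCGCCCUUcccccccuucuuca
miR-185-5p: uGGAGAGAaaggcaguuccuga
miR-7a-5p: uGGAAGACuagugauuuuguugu

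Plasma libraries of all 4 sham rats held fewer miRNA reads on D9. In rat 1 the total went from 594332 on D2 to 140636 on D9. In rat 2 it went from 1308431 to 162125, in rat 3 from 671523 to 202059 and in rat 4 from 1331905 to 358202. The D9 totals were 23.7%, 12.4%, 30.1% and 26.9% of the D2 totals, and the totals of the days did not overlap. The mean log2 ratio was -2.18, with a two-sided exact sign-flip permutation p of 0.13, which is the smallest p that 4 pairs allow. In the 16 TBI rats the D9 total was 30.3% to 342% of the D2 total, with a median of 93.1%. The log2 ratio was lower in sham than in TBI rats by a mean difference of -2.07 (two-sided exact permutation test over rats, p = 0.000413).

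The numbers in the library names fall into 3 unbroken runs, and what a run stands for is not given in the sources used here. All 4 D2 sham libraries lay in the first run and all 4 D9 sham libraries in the last, so day and run cannot be told apart within the sham rats. TBIE rats 1 to 4 were numbered the same way. Their D9 totals were 66.4% to 110% of their D2 totals, above all 4 sham rats, and the difference from sham was -2.0 on the log2 scale (two-sided exact permutation test, p = 0.0286, the smallest p for 4 rats against 4).

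Fewer miRNAs were detected on D9. At least 1 read was found for 370, 398, 386 and 429 miRNAs on D2 in rats 1 to 4, and for 283, 326, 300 and 358 on D9. The mean change was -79.0 miRNAs (exact sign-flip permutation test, p = 0.13). When each library was thinned to the smallest sham total, the mean change was -9.5 (p = 0.375, same exact test), and rat 2 had more detected miRNAs on D9 than on D2. A level of 3 reads, under which a value is taken as not detected, was worth 2.25 to 5.05 CPM (reads scaled to a library total of 1000000) on D2 and 8.38 to 21.3 CPM on D9, so low miRNAs could be followed less far on D9. These limits cover counting error only.

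**Figure D1:**
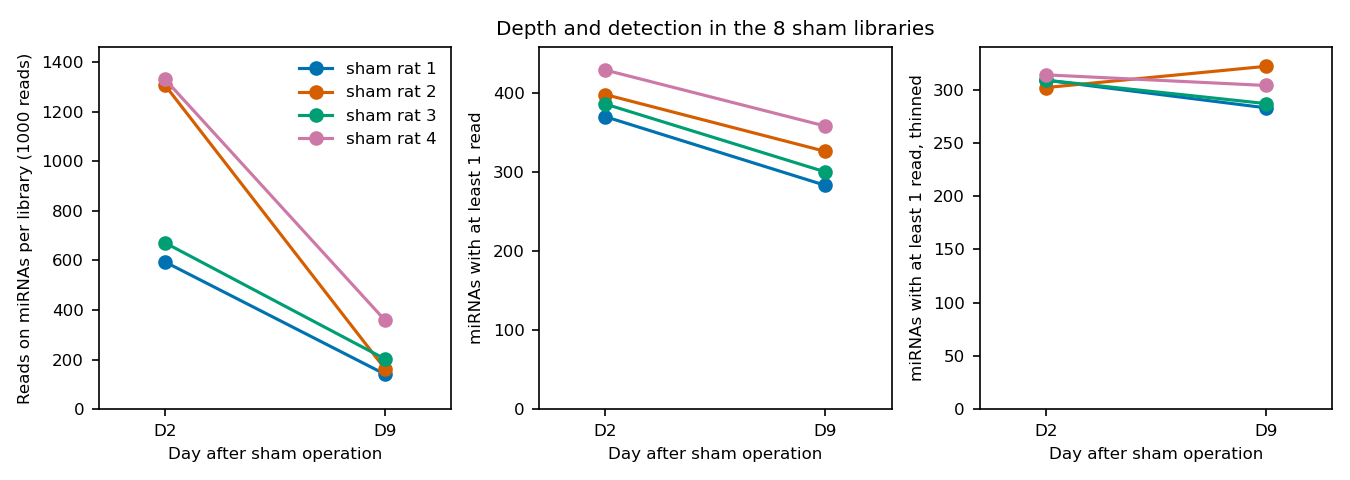
Reads on miRNAs (left, axis in units of 1000 reads), miRNAs with at least 1 read (middle) and the same after thinning every library at random to the smallest sham total (right), for D2 and D9; each line is 1 sham rat. D9 totals of all 4 rats were 12.4% to 30.1% of the D2 value, and the gap in detected miRNAs narrowed from a mean of -79.0 to -9.5 after thinning.

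At the depth as sequenced, the D9 libraries also resembled each other less. Spearman's rho between pairs of D2 libraries was 0.908 to 0.941 (6 pairs, across miRNAs), and between pairs of D9 libraries 0.832 to 0.887. A rat's own D2 and D9 libraries had rho between 0.857 and 0.920 (median 0.863), against a median of 0.873 for libraries of different rats on different days. These are descriptions across miRNAs, which share libraries and depth. miR-22-3p, the miRNA with the highest mean CPM over the 8 libraries, held 10.3%, 14.5%, 12.2% and 12.9% of the reads of rats 1 to 4 on D2. On D9 it held 26.5%, 10.7%, 26.4% and 14.7%, so rats 1 and 3 were high while rats 2 and 4 were near their D2 share.

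The D9 library of rat 2 stood farthest apart. Among the 231 miRNAs that averaged 10 reads or more over the 8 libraries, 25 were at least 4-fold above the median of the other D9 libraries in it, against 0 to 5 in each of the other 7 libraries measured the same way. In the other direction, the D9 library of rat 3 had 10 miRNAs at least 4-fold below the others, against 0 to 3 in each of the remaining libraries. In the D9 library of rat 2, the 10 miRNAs that stood farthest from the others held 7.12% of the reads, against 0.135% to 0.278% in the other 7 libraries. These 10 were picked by their ratio in this library, so a larger share here follows from the choice. miR-24-3p alone made up most of that share, and miR-185-5p and miR-455-3p averaged 10 reads only through this library. miR-24-3p, from the miR-23/27/24 clusters, had 53601 CPM in rat 2 on D9 and 555, 831 and 1061 CPM in rats 1, 3 and 4. Its D2 values were 858, 853, 812 and 806 CPM in rats 1 to 4, so 1 of the 8 libraries was high. miR-146a-5p, a miRNA of the innate immune response, had 13311 CPM in this library and at most 1262 CPM in the other D9 libraries.

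miR-185-5p had 1622 CPM (263 reads) in rat 2 on D9, against 0, 14.8 and 0 CPM in the others. The same library also held the highest values of miR-455-3p (333 CPM), miR-200c-3p (401 CPM), miR-542-5p (241 CPM), miR-425-3p (222 CPM), miR-25-5p (204 CPM), miR-132-3p (148 CPM) and miR-194-5p (1086 CPM). For all 10 the value was the highest of the 40 libraries in the series, a rank partly set by picking them in this library. The next highest was 14.8 CPM for miR-185-5p and 1251 CPM for miR-24-3p. The other arms could be read for some of these hairpins only, since several had few or no reads. miR-185-3p was at 18.5 CPM in rat 2 and 11.2 to 19.8 CPM in the other D9 libraries, and miR-455-5p at 105 CPM against 111.7 to 377 CPM. miR-425-5p was above the others, at 2757 CPM against 1109 to 1714 CPM. The summed CPM of the 4 lymphocyte miRNAs was 75849 in rat 2 on D9 and 9131 to 16055 in the other D9 libraries, with miR-150-5p at 72512 CPM. The part of this library in the day comparison is given below by leaving rat 2 out.

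**Figure D2:**
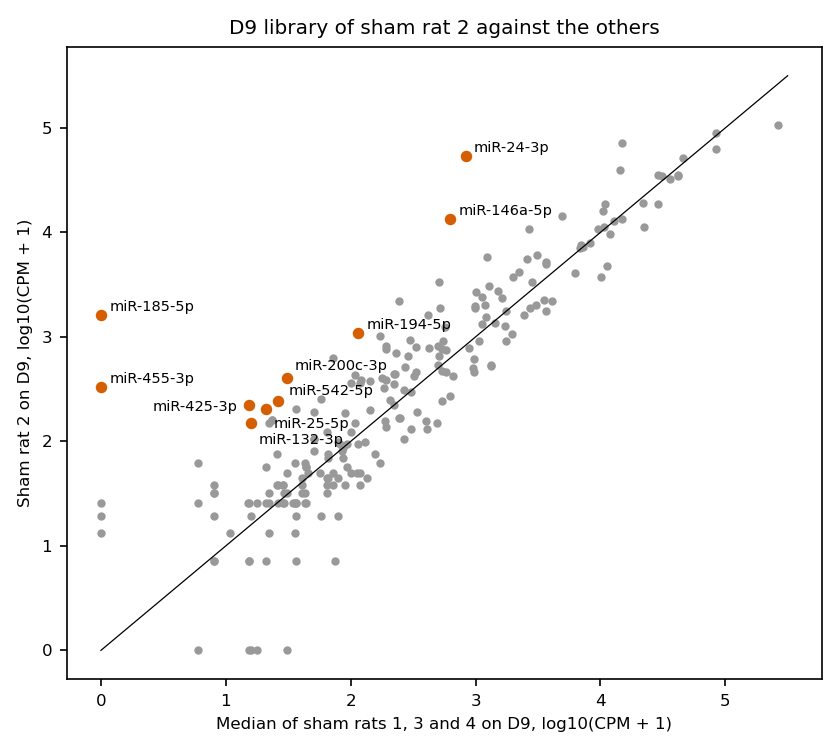
Level of each miRNA with a mean of at least 10 reads in the D9 library of sham rat 2 (vertical, log10 of CPM + 1) against the median of the other 3 D9 sham libraries (horizontal, same scale). Points above the line are higher in rat 2. The 10 named points, led by miR-185-5p at 1622 CPM and miR-24-3p at 53601 CPM, had the largest ratios once values under the 3-read level were raised to it.

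Between D9 and D2, 9 miRNAs fell and 2 rose. edgeR's quasi-likelihood test with the rat as a block and Benjamini-Hochberg adjustment called 11 of 491 miRNAs (2.24%) at an adjusted p below 0.05, and 58 had an unadjusted p below 0.05. The 9 that fell were miR-148b-3p, miR-145-5p, miR-152-3p, let-7d-3p, miR-133a-5p, miR-222-3p, miR-1249, miR-23a-3p and miR-23b-3p, with log2 fold changes from -2.28 to -1.53. The 2 that rose, miR-185-5p and miR-7a-5p, were high only in the D9 library of rat 2. The median log2 fold change of all 491 was -0.41 with the TMM scaling used, and -0.14 with the median-ratio (RLE) scaling, under which 2 rose and 0 fell, so the split of calls depends on the scaling. With RLE scaling the 9 log2 fold changes were -2.0 to -1.28, and 59 miRNAs had an unadjusted p below 0.05.

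miR-148b-3p had 888, 1153, 1035 and 1249 CPM in rats 1 to 4 on D2 and 220, 352, 114 and 639 CPM on D9. Every D9 value lay below every D2 value, and rat 3 had the largest fall. The log2 fold change was -1.95 (standard error 0.50, adjusted p = 0.0184 by edgeR's test). miR-152-3p, of the same seed, had 855, 1211, 1044 and 1297 CPM on D2 and 270, 512, 94.0 and 620 CPM on D9, with no overlap and again the lowest value in rat 3 (log2 fold change -1.82, standard error 0.50, edgeR adjusted p = 0.0273). The third member, miR-148a-3p, was more abundant (11421 CPM ± 1436 on D2, SD, n = 4) and had a log2 fold change of -0.81 that did not pass (standard error 0.40, edgeR adjusted p = 0.407).

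miR-145-5p had 209, 1018, 630 and 819 CPM on D2 and 121, 382, 59.4 and 123 CPM on D9. It was lower on D9 in 4 of 4 rats, but the 382 CPM of rat 2 on D9 lay above the 209 CPM of rat 1 on D2, so the days overlapped. The log2 fold change was -2.09 (standard error 0.54, edgeR adjusted p = 0.0184). Its other arm, miR-145-3p, had a log2 fold change of -0.84 (edgeR adjusted p = 0.671), and miR-143-3p, from the same cluster, one of -0.60 (edgeR adjusted p = 0.605). The fall passed the test in miR-145-5p alone of these 3, and the differences among them were not tested.

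let-7d-3p had the widest gap between the days. Its levels were 4107, 5019, 5018 and 3092 CPM on D2 and 1244, 1351, 1727 and 1443 CPM on D9. The D9 values were close to each other and the lowest D2 value was above all of them (log2 fold change -1.57, standard error 0.44, edgeR adjusted p = 0.0273). The 5p arm of the same hairpin, let-7d-5p, is listed at 0 in all 40 libraries and could not be compared. Of the let-7 neighbours on chromosome 17, let-7f-5p had 16302, 13815, 15137 and 12504 CPM on D2 and 6627, 7143, 8587 and 6923 CPM on D9. Its days did not overlap, but its log2 fold change of -0.99 did not pass (edgeR adjusted p = 0.219).

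miR-222-3p had 283, 426, 475 and 414 CPM on D2 and 49.8, 185, 89.1 and 162 CPM on D9, with no overlap (log2 fold change -1.85, standard error 0.53, edgeR adjusted p = 0.0318). Its partner miR-221-3p, with the same seed GCUACAU, had 535, 649, 835 and 822 CPM on D2 and 654, 419, 817 and 620 CPM on D9. Those values overlapped, and the log2 fold change of -0.21 did not pass (standard error 0.48, edgeR adjusted p = 0.895). The difference between the partners was not tested. miR-1249 had 117.8, 80.2, 140 and 48.1 CPM on D2 and 28.4, 24.7, 9.90 and 16.8 CPM on D9, which were 2 to 6 reads in each D9 library (log2 fold change -2.20, standard error 0.64, edgeR adjusted p = 0.0318). The days did not overlap for miR-1249, but its D9 levels were near the detection level.

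miR-133a-5p had 50.5, 229, 217 and 434 CPM on D2 and 78.2, 6.17, 74.2 and 30.7 CPM on D9. It was lower in rats 2, 3 and 4 and higher in rat 1, and the days overlapped. The 6.17 CPM of rat 2 is 1 read, under the 3-read level of 18.5 CPM in that library. The log2 fold change was -2.28 (standard error 0.64, edgeR adjusted p = 0.0273), and -1.52 without rat 2, where it was not called. miR-23a-3p had 3123, 3969, 4301 and 4048 CPM on D2 and 981, 1961, 629 and 2490 CPM on D9, lower in all 4 rats and with no overlap (log2 fold change -1.53, standard error 0.45, edgeR adjusted p = 0.0323). miR-23b-3p had nearly the same values (log2 fold change -1.54, edgeR adjusted p = 0.0323). miR-27a-3p and miR-27b-3p, from the same clusters, had log2 fold changes of -0.64 and -0.57 that did not pass (edgeR adjusted p = 0.545 and 0.643). Counts of these 2 differed by 3.47% over all 40 libraries, so they are not separate evidence.

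The 2 rises rested on the D9 library of rat 2. miR-185-5p had 0, 0, 1.49 and 4.5 CPM on D2 and 0, 1622, 14.8 and 0 CPM on D9, so by the 3-read level it was detected in rat 4 on D2 and in rats 2 and 3 on D9 and in no other library. miR-7a-5p had 6.73, 0, 2.98 and 1.5 CPM on D2 and 0, 395, 19.8 and 5.58 CPM on D9, and its mean over the 8 libraries was 9.75 reads. The fitted log2 fold changes were 4.61 (standard error 1.15, edgeR adjusted p = 0.0184) and 3.41 (standard error 0.94, edgeR adjusted p = 0.0273). Without rat 2, neither was called by edgeR.

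**Figure D3:**
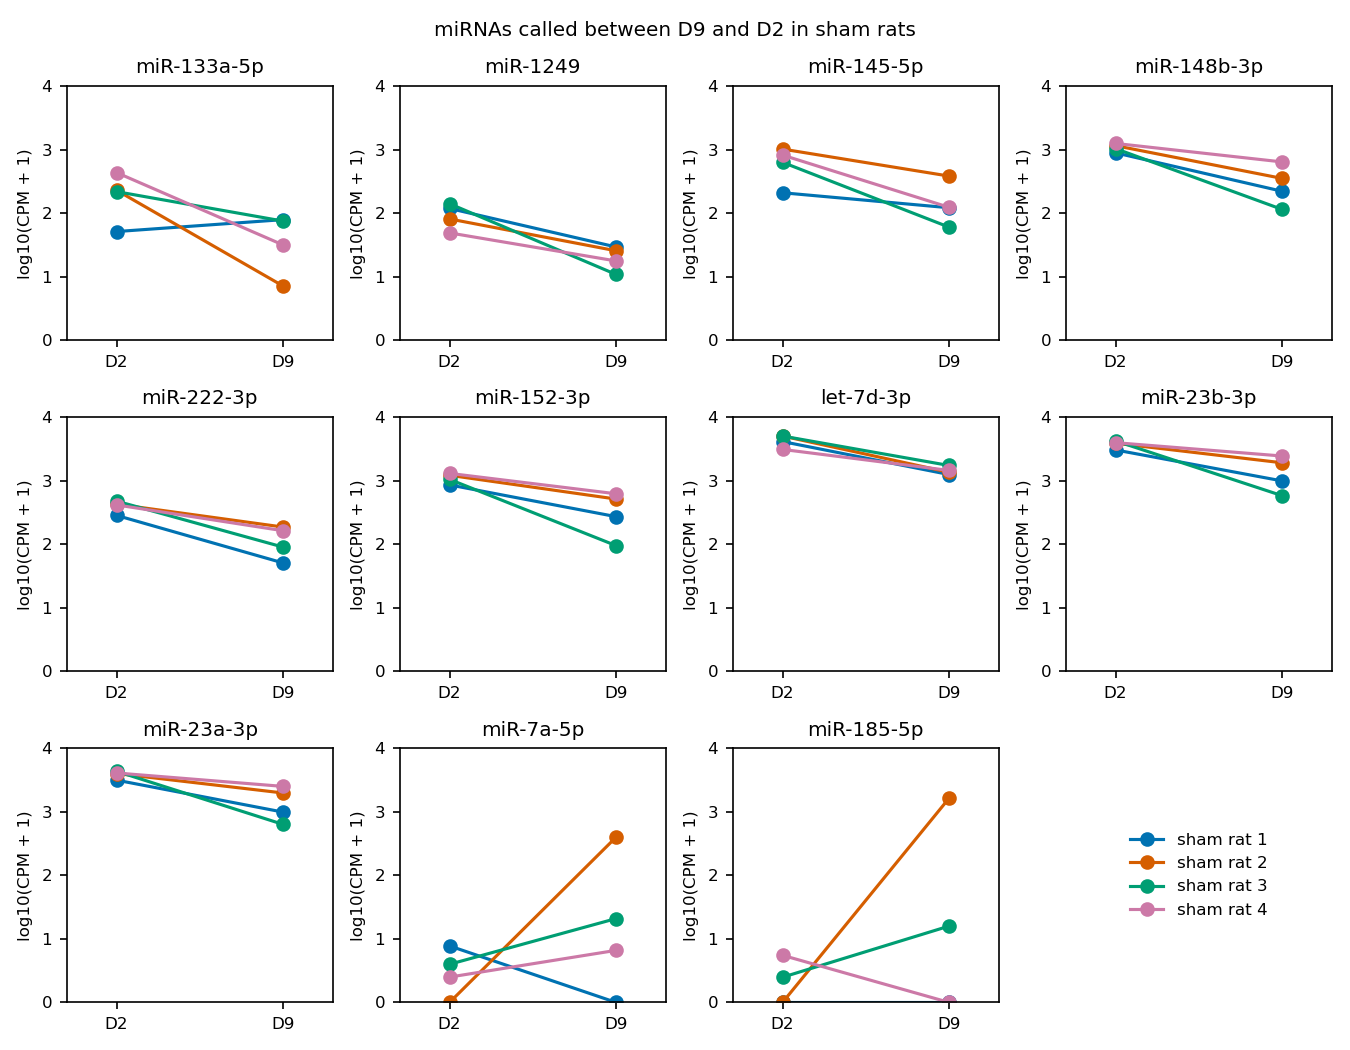
Levels (log10 of CPM + 1) on D2 and D9 of the 11 miRNAs called by edgeR between the days, each line 1 sham rat. In 8 of the 9 that fell, all 4 lines run down, miR-133a-5p rises in rat 1, and in miR-7a-5p and miR-185-5p only rat 2 is high on D9.

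The number of calls was small and moved with the rats, the filter and the fit. Without the rat as a block edgeR called 23 miRNAs, 13 higher and 10 lower, and with scaling to miR-28-3p it called 0, with 34 at an unadjusted p below 0.05. Leaving out rat 1, 2, 3 or 4 left 2, 0, 0 and 1 calls by edgeR, with 28, 50, 34 and 49 miRNAs at an unadjusted p below 0.05. Without rat 2, DESeq2 called 11 miRNAs, 7 of which were among the 11 above. Restricting the test to the 231 miRNAs that averaged 10 reads or more left 0 calls by edgeR and 45 at an unadjusted p below 0.05, while DESeq2 on all 491 called 7. After thinning all libraries to the smallest total, 5 were called, 4 of them among the 11. The 9 miRNAs that fell kept a negative log2 fold change in every one of the 19 alternative fits that held them. In edgeR's sham-only fit the values were -2.25 to -1.34 without rat 2 and -2.32 to -1.35 after thinning. With rat 2 left out and thinned they were -2.10 to -1.25. Without rat 2 they were -2.14 to -1.22 by DESeq2 and -2.34 to -1.45 with all TBI libraries in the fit. With all 40 libraries and the run in the fit the 9 values were -2.18 to -0.60, and 4 of the 11 miRNAs were called. There let-7d-3p was at -0.60 and miR-1249 at -0.86, so both were smaller once the run was in the fit.

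Counted without a model, 13 miRNAs (2.65% of 491) had every D9 CPM above every D2 CPM, and 29 (5.91%) had every D9 CPM below. Among the 13 was miR-375-3p, a miRNA of pancreatic islets and epithelia, with the widest gap. It had 3678, 3366, 3558 and 2467 CPM on D2 and 7623, 7513, 6934 and 6401 CPM on D9. The values of each day were close together, and it was higher on D9 in 4 of 4 rats, but its log2 fold change of 1.13 did not pass (standard error 0.42, edgeR adjusted p = 0.176). The next widest gaps among the 13 were those of miR-17-1-3p, miR-802-3p, miR-134-5p and miR-200c-3p, with log2 fold changes of 1.08, 1.96, 1.57 and 1.67, none of which passed. Thinning to the smallest sham total removed the gaps of miR-17-1-3p, miR-134-5p and miR-200c-3p and kept those of miR-375-3p and miR-802-3p. On D9, rats 1 to 4 had 6, 13, 13 and 18 reads of miR-134-5p and 4, 65, 6 and 16 reads of miR-200c-3p.

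Among the 29, the 5 widest gaps were those of let-7d-3p, miR-1249, let-7a-1-3p, let-7c-2-3p and miR-222-3p. let-7a-1-3p and let-7c-2-3p have counts that differed by 0.487% and are treated as one. let-7a-1-3p had 113, 70.3, 89.3 and 82.6 CPM on D2 and 35.6, 24.7, 9.90 and 41.9 CPM on D9 (log2 fold change -1.73, edgeR adjusted p = 0.176). miR-128-3p, a brain-enriched miRNA that blood cells also carry, was in the 29 as well, with 6853, 5764, 8165 and 4436 CPM on D2 and 1998, 3750, 1737 and 3124 CPM on D9 (log2 fold change -1.29, edgeR adjusted p = 0.118). After thinning to the smallest sham total, 5 miRNAs were higher without overlap and 20 lower, among 431 with reads. Of the 5 widest gaps among the 29, thinning removed that of let-7a-1-3p but kept that of let-7c-2-3p, so it did not settle this near-identical pair. The gaps of let-7d-3p, miR-1249 and miR-222-3p were kept.

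Between sham and TBI rats, the change from D2 to D9 differed for 17 of 581 miRNAs (2.93%) by the interaction term of edgeR's test over all 40 libraries, with the rat as a block. It was lower in sham rats for 10 and higher for 7. This split depended on the scaling: with RLE scaling 5 were lower and 10 higher, and DESeq2 had 4 lower and 14 higher. All 9 miRNAs that fell in sham rats also had negative D9-minus-D2 values in TBIE rats 1 to 4, whose libraries lay in the same runs, and 8 of the 9 were called lower there, where 43 of 517 miRNAs tested (8.32%) were called lower by the same edgeR test. Over all 16 TBI rats, which include those 4, 6 of the 9 were negative.

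miR-145-5p, miR-148b-3p, miR-152-3p, miR-23a-3p and miR-23b-3p were lower on D9 in 16 of 16 TBI rats. Their log2 fold changes in TBI rats were -2.41, -1.24, -1.49, -0.81 and -0.83, and none was called as different from the change in sham rats. For miR-145-5p the difference, sham minus TBI, was 0.34 (95% confidence interval -0.57 to 1.26), for miR-152-3p it was -0.29 (-1.16 to 0.58), and for miR-148b-3p -0.68 (-1.55 to 0.19). miR-133a-5p fell more in TBI rats, by -4.21 on the log2 scale, than in sham rats, and the difference of 2.00 passed (95% confidence interval 0.89 to 3.10, edgeR adjusted p = 0.0227).

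let-7d-3p, miR-222-3p and miR-1249 differed most plainly from the TBI rats as a whole. The within-rat log2 ratio of CPM (with 1 CPM added) of let-7d-3p was -1.89 to -1.10 in sham rats and -1.25 to 1.51 in TBI rats, where 15 of 16 lay above all sham rats. For miR-222-3p the ranges were -2.48 to -1.20 in sham rats and -0.89 to 1.3 in TBI rats, with no overlap. The differences were -1.79 for let-7d-3p and -2.11 for miR-222-3p (edgeR adjusted p = 0.00309 for both) and -2.23 for miR-1249 (edgeR adjusted p = 0.0128).

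In TBIE rats 1 to 4 alone, however, all 3 were lower on D9 in 4 of 4 rats. Against these rats the difference was -0.53 for let-7d-3p (95% confidence interval -1.53 to 0.46), -0.58 for miR-1249 (-1.96 to 0.81) and -1.07 for miR-222-3p (-2.20 to 0.06). edgeR called 0 miRNAs in that comparison, with 25 at an unadjusted p below 0.05, and 0 with the run as a covariate over all rats, with 35 at an unadjusted p below 0.05. DESeq2, run over all rats without the run, called 18. The part of the run in the difference between sham and all TBI rats was not tested beyond these values.

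let-7f-5p and miR-223-3p, a myeloid miRNA, had differences of -1.50 and -1.51 from all TBI rats (edgeR adjusted p = 0.00769 and 0.0200), and of -0.12 and -0.77 from TBIE rats 1 to 4, which did not pass. Of TBIE rats 1 to 4, 3 had lower let-7f-5p on D9 and 2 had lower miR-223-3p. miR-142-5p, known from blood cells, had a difference of -1.31 from all TBI rats (edgeR adjusted p = 0.0334) and of -1.41 from TBIE rats 1 to 4 (edgeR adjusted p = 0.343).

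Of the 7 miRNAs with a higher day change in sham rats, miR-129-5p, miR-127-3p and miR-341 are known from brain or from an imprinted locus, and the brain-enriched miR-128-3p had a negative difference that was not called (-1.01, edgeR adjusted p = 0.176). miR-129-5p, a neuronal miRNA, fell in 16 of 16 TBI rats, with within-rat log2 ratios of -6.31 to -2.35. In sham rats it had 0, 44, 8 and 14 reads on D2 and 2, 0, 4 and 0 on D9, too few to follow within a rat. The fitted difference was 3.87 (edgeR adjusted p = 0.00769), and 3.84 against TBIE rats 1 to 4 (edgeR adjusted p = 0.143). miR-127-3p, from the imprinted Dlk1-Dio3 locus, had 113, 316, 225 and 304 CPM on D2 and 491, 148, 633 and 226 CPM on D9 in sham rats. It was higher on D9 in rats 1 and 3 and lower in rats 2 and 4, while 15 of 16 TBI rats were lower on D9, and the difference was 1.89 (edgeR adjusted p = 0.00769). miR-341, from the same locus, had a difference of 1.66 (edgeR adjusted p = 0.0369), and miR-22-3p one of 1.10 (edgeR adjusted p = 0.0396).

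**Figure D4:**
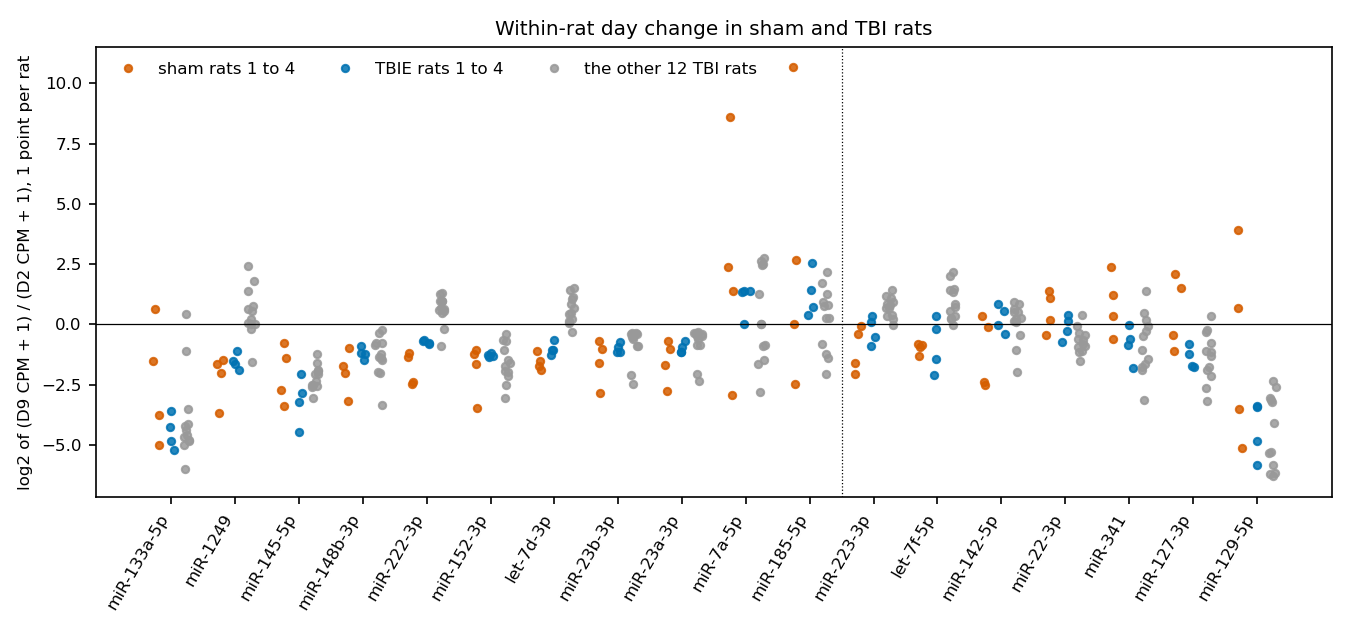
Within-rat log2 ratio of D9 to D2 CPM (1 CPM added to each), 1 point per rat, for the 11 miRNAs called in sham rats (left of the dotted line) and 7 further miRNAs whose day change differed between sham and TBI rats (right); orange, 4 sham rats; blue, TBIE rats 1 to 4; grey, the other 12 TBI rats. For let-7d-3p, miR-222-3p and miR-1249 the sham and TBIE points lie below 0 while most grey points lie above, and for miR-145-5p, miR-148b-3p and miR-152-3p all 3 sets lie below 0.

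The miRNAs were also read by tissue or locus, over members with a mean of at least 10 reads, where all 231 such miRNAs had a median log2 fold change of -0.33 (89 positive and 142 negative). The lists are short, their members share libraries, and nothing is read from a list's median beyond its value. The liver and gut list had 4 of 4 positive values and a median of 0.96, and none of its members was called. miR-192-5p, a miRNA of liver, gut and kidney, had 32677, 41193, 24406 and 41556 CPM on D2 and 84409, 63210, 34228 and 92892 CPM on D9. It was higher on D9 in 4 of 4 rats, and rat 3 on D9 overlapped the D2 values (log2 fold change 0.90, standard error 0.35, edgeR adjusted p = 0.219). miR-122-5p, the main liver miRNA, is listed at 0 in all 40 libraries while its other arm, miR-122-3p, had reads, so the liver list lacks its defining member.

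The epithelial list had 7 of 7 positive values and a median of 0.60, with miR-375-3p at 1.13, miR-205 at 0.89 and miR-200c-3p at 1.67, and none was called. Without rat 2 the medians of the liver and gut and the epithelial list were 0.60 and 0.29, beside -0.22 for all. The let-7 list had 11 of 13 negative values and a median of -0.67, with let-7a-1-3p and let-7c-2-3p entered separately, and let-7d-3p was its only called member. let-7i-5p went the other way, at 0.87 (edgeR adjusted p = 0.407). The vascular list had a median of -0.72 over 4 members with miR-145-5p called, and -0.12 without rat 2. The muscle list had 2 members, miR-133a-5p and miR-133b-3p, at -2.28 and -1.33. Several muscle miRNAs, miR-1-3p and miR-133a-3p among them, are listed at 0 in all libraries.

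Blood-cell lists showed no shared direction. The red blood cell list had a median of -0.15 (2 positive, 5 negative) and its summed CPM was 127659 to 201576 on D2 and 95269 to 155454 on D9. Its most abundant member, miR-92a-3p, had a log2 fold change of -0.55 that did not pass (edgeR adjusted p = 0.545), and miR-451-5p, known from red blood cells, one of 0.10 (edgeR adjusted p = 0.908). The myeloid and platelet list had a median of 0.19 (6 positive, 5 negative) and the lymphocyte list one of -0.17 (2 and 2). Without rat 2, whose D9 library was high in lymphocyte miRNAs, these medians were -0.32 and -0.49, so that of the myeloid and platelet list turned sign. With RLE scaling the red blood cell and lymphocyte medians were 0.11 and 0.10, beside -0.06 for all 231 miRNAs. Both of these list medians thus turned sign with the scaling. The miR-17-92 and miR-106b-25 clusters had 8 positive and 8 negative values and a median of 0.04. None of the members of these 4 lists was called.

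The bone and cartilage list had a median of -0.78 (6 of 7 negative). Its positive member, miR-455-3p, averaged 10 reads only through the D9 library of rat 2. The miR-23, miR-27 and miR-24 clusters had a median of -0.64 (6 of 7 negative, with miR-24-3p positive through rat 2). In that list the near-identical miR-23a-3p and miR-23b-3p were entered separately, as were miR-27a-3p and miR-27b-3p. The Dlk1-Dio3 list had a median of 0.22 over 7 members and the brain list 0.14 over 5 members. Without rat 2 the Dlk1-Dio3 and brain medians were 0.61 and -0.31, so that of the brain list turned sign. Of 27 brain miRNAs listed, 18 had any read in sham libraries. miR-124-3p, the neuronal miRNA measured by PCR in the study, had 0 reads in all 8 sham libraries on both days. miR-124-3p did have reads in the D2 library of 16 of 16 TBI rats. miR-434-3p and miR-9a-3p, also in the PCR set, are listed at 0 in all 40 libraries, so their rows say nothing of sham plasma. miR-136-3p had 12, 56, 39 and 44 reads on D2 and 1, 5, 1 and 10 on D9 (log2 fold change -1.20, edgeR adjusted p = 0.573). miR-132-3p and miR-212-3p were at 0.50 and 0.14 with no call, each highest on D9 in rat 2 (148 and 61.7 CPM). miR-323-3p had 5, 16, 19 and 9 reads on D2 and 0, 3, 0 and 0 on D9. Its log2 fold change was -2.13 (standard error 1.31, edgeR adjusted p = 0.573), and its reads were too few to follow at the lower D9 depth.

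**Figure D5:**
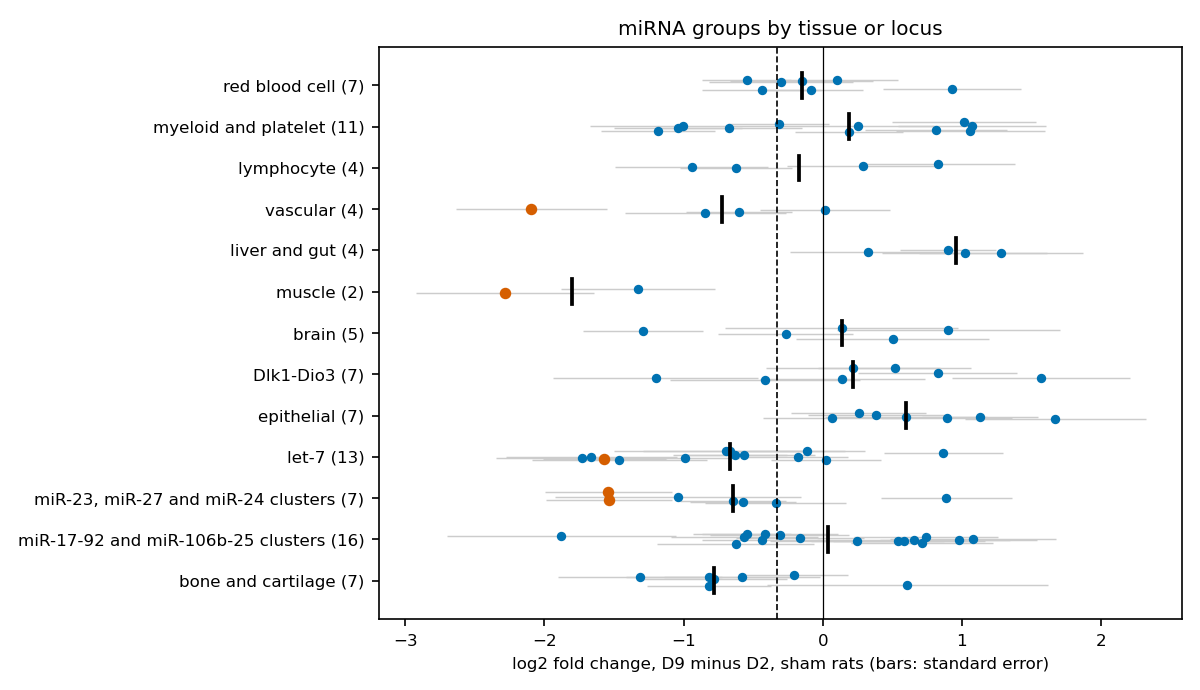
log2 fold change (D9 minus D2) in sham rats of members with a mean of at least 10 reads, by list (number of members in brackets); points are miRNAs with their standard error, orange those called, black bars list medians, and the dashed line the median of all 231 miRNAs at -0.33. The liver and gut and the epithelial members all lie above 0, and 11 of the 13 let-7 members lie below it.

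Base composition and hairpin arm were compared over matched miRNAs that averaged 10 reads or more. Matched miRNAs with low, middle and high GC content had median log2 fold changes of -0.38, -0.34 and -0.27. Those of the 3p arm had a median of -0.54 (108 miRNAs) and those of the 5p arm -0.18 (91 miRNAs). Among let-7 3p strands with the seed UAUACAA, all were negative, from -1.73 for let-7a-1-3p (counted as one with let-7c-2-3p) through -1.46 for let-7b-3p to -0.67 for let-7f-1-3p, while the let-7 5p strands with the seed GAGGUAG ranged from -0.99 for let-7f-5p to 0.87 for let-7i-5p. These differences are descriptions and were not tested.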

How the data were processed

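Plasma from EDTA tail-vein blood was sequenced as TruSeq small RNA libraries (HiSeq, 2 flow cells merged). The authors trimmed reads with Trimmomatic 0.36 after FastQC 11.8, aligned them with Bowtie2 and counted miRBase miRNAs with featureCounts (the study's methods and the submitters' processing notes), and deposited raw read counts per miRNA. They compared groups within a day with DESeq2. Of 752 listed miRNAs, 171 are at 0 in all 40 libraries, and for 54 of these the other arm has reads. Reads mapping to several loci or near-identical miRNAs could be split or lost at counting. No molecular identifiers were used.

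Here, libraries were grouped by title. The main test was edgeR 4.0.16 (quasi-likelihood, TMM, R 4.3.3) on the counts of the 491 miRNAs with reads, with Benjamini-Hochberg adjustment at 0.05. The rat was a block because its number marks the same animal on both days. Deviations from the day means correlated within rats at -0.12, -0.25, -0.13 and 0.13 over 231 miRNAs. DESeq2 1.42.0, other scalings and filters, random thinning, run as a covariate and each rat left out were alternatives. The scripts were tested on simulated data. Totals and numbers detected were compared by exact permutation over rats (scipy 1.17.1). CPM are reads scaled to a library total of 1000000 counted reads. Lists and members were chosen with earlier results of these data known. miRNAs named in the text were the 10 with the lowest p in each direction, the 10 most abundant, those measured by PCR, those setting a library apart, those leading the interaction, the 5 with the widest gap in each direction, abundant list members and all called miRNAs. Other names (other arms, cluster partners and seed families of called miRNAs, and miRNAs listed at 0) were added after their values were seen. No 2 columns held identical counts. P-values of the paired tests within sham rats measure how the day change varies among these 4 rats. In edgeR's test the estimate of that spread also draws on all miRNAs tested. In the interaction test, all 40 libraries, most of them of TBI rats, shared an estimate of the spread. The permutation tests against TBI rats permuted all rats compared.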

Additional observations from a re-analysis of the deposited data

Results flagged for a closer look

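In the D9 group, the sham rat 2 library lay far above the other 3 for 8 of the 44 sets of 4 values checked by Dixon's test. These were miR-24-3p (53601 CPM), miR-146a-5p (13311 CPM), miR-185-5p (1622 CPM), miR-200c-3p (401 CPM), miR-7a-5p (395 CPM), miR-455-3p (333 CPM), miR-542-5p (241 CPM) and miR-425-3p (222 CPM). All 8 came from the same library. Chance gives about 1 in 20 for sets chosen without regard to their values, but most of these miRNAs were named because they were high in this library, so the number of them is no evidence beyond their levels. miR-185-5p and miR-455-3p reach a mean of 10 reads only through it.

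The change from D2 to D9 differed between sham and TBI rats for the library total (mean difference in log2 ratio -2.07, exact permutation p = 0.000413) and for 17 miRNAs by edgeR's interaction term. The log2 difference, sham minus TBI, was negative for miR-222-3p (-2.11), let-7d-3p (-1.79), let-7f-5p (-1.50), miR-1249 (-2.23), miR-223-3p (-1.51), miR-17-2-3p (-2.51), miR-98-3p (-3.39), miR-142-5p (-1.31), miR-301b-3p (-1.40) and miR-340-3p (-6.71). It was positive for miR-129-5p (3.87), miR-185-5p (4.43), miR-127-3p (1.89), miR-133a-5p (2.00), miR-329-5p (2.95), miR-341 (1.66) and miR-22-3p (1.10). The value for miR-340-3p, which had a mean of 4.5 reads in the sham libraries, is a fitted value and no bound. The value for miR-185-5p rested on the D9 library of rat 2.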

How the results depend on the processing

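The count of 11 calls between the days became 23 (13 higher, 10 lower) with no replicate block, where the pairing by rat was dropped, 7 with DESeq2, 2 with RLE scaling, 5 after thinning, 28 with all 40 libraries in the fit, 4 with the run added to that fit, and 17 with all TBI libraries and rat 2 left out. It was 0 after scaling to miR-28-3p, with edgeR's expression filter, with a mean of at least 10 reads, and with rat 2 left out and thinned (34, 42, 45 and 40 at an unadjusted p below 0.05 by edgeR; DESeq2 was not run on these 4). Leaving out 1 rat gave 0 to 2. Total-count scaling, a robust fit and counting near-identical miRNAs once gave 11, 9 and 10. The 17 calls of the difference from TBI rats became 0 against TBIE rats 1 to 4, 0 with the run as a covariate, 5 with the expression filter and 5 after thinning, and 3 to 24 with 1 sham rat left out. The block changed no other call count by over 1.5 times (22 without it).

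The 42 miRNAs without overlap became 25 after thinning, and 78 to 92 with 1 rat left out, where fewer samples make non-overlap easier. miR-7a-5p turned to -1.67 with all 40 libraries and the run, and the difference for miR-185-5p to -0.23 without sham rat 2 (up to 9.30 with another rat left out). No other called miRNA changed sign in the comparison that called it. The causes were not tested. Calls rest on 4 rats, and the D9 totals of 140636 to 358202 reads limit what can be seen of miRNAs under about 10 reads. The alternatives with rat 2 left out of DESeq2, of the fit with all TBI libraries, of the lists and of the overlap counts were chosen after seeing the data.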

Other observations

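On D2, sham rats 1 and 3 differed from rats 2 and 4 in several abundant miRNAs as well as in depth (594332 and 671523 reads against 1308431 and 1331905). miR-143-3p, a smooth muscle miRNA, had 17973 and 20850 CPM in rats 1 and 3 and 41935 and 42746 CPM in rats 2 and 4. miR-92a-3p, abundant in red blood cells, had 156532 and 172585 CPM in rats 1 and 3 and 112069 and 95849 CPM in rats 2 and 4. On D9 this order did not return for miR-143-3p, which had 17599, 11232, 28907 and 22381 CPM in rats 1 to 4. For miR-92a-3p it was reversed, with 84879, 89012, 79348 and 108587 CPM in rats 1 to 4. The split was noticed in the values and was not tested.

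Among the other miRNAs of the miR-15/16 seed AGCAGCA, miR-195-5p, miR-322-5p and miR-497-5p had log2 fold changes of -1.24, -1.18 and -1.27 between D9 and D2, miR-15b-5p had one of -0.33, and miR-16-5p, the most abundant of them, one of -0.09. None of these 5 was called by edgeR.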
